A study of Mus musculus with 12 samples.

Results

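The fibroblast growth factor (FGF) ligand genes Fgf4, Fgf5, Fgf8, Fgf10, Fgf15 and Fgf17 and the receptor genes Fgfr1, Fgfr2, Fgfr3 and Fgfr4 were followed across 12 arrays of mouse embryonic stem cells. They were taken by symbol from the gene table of the array platform and make up 10 of the 18193 genes it names. These genes have 24 probe sets, and the probe set with the highest mean over the 12 arrays stood for each gene. The test covered 13067 genes with brighter probe sets, and 9 of the 10 FGF genes were among them. Fgf10 was too dim and was not tested. The stem cell line was D3. Its cells were kept on a layer of mouse embryonic fibroblasts that had been treated with MMC, and they differentiated as embryoid bodies, which are floating aggregates. Arrays were made in 4 groups of 3: differentiation until day 8 with the agent labelled BPA (BPA day8), the same with the agent labelled NP (NP day8), the same with no agent (control day8), and the cells at day 0 with no agent (control day0). The labels neither spell out the agents nor give doses, and whether the 3 replicates came from separate cultures is not stated. A p-value here therefore reflects no more than the scatter among these arrays, which may be technical.

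FGF ligands are secreted proteins that bind receptor tyrosine kinases together with heparan sulfate on the cell surface, and the bound receptors switch on the RAS and ERK kinase cascade. In mouse embryonic stem cells, Fgf4 made by the cells themselves acts through Fgfr1 and Fgfr2 and helps them leave the naive state, and it directs neighbouring cells of the early embryo to primitive endoderm. Fgf5 marks the epiblast after implantation, and the other ligands act later, in the gastrulating embryo, the limb, lung and brain or, for Fgf15, the gut.

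Promoters are shown for the 3 genes that passed the test both with differentiation and with BPA. All 3 had an entry in the set of RefSeq promoter sequences used here. These are the 250 bases before the annotated start in the RefSeq annotation of GRCm38.p6, printed 5′ to 3′ on the strand of the gene. Capitals mark matches on either strand of the GC box GGGCGG, the letters bound by factors of the Sp1 family, and of the CCAAT box, the letters bound by NF-Y.
Fgf4, chr7:144861136-144861385, plus strand: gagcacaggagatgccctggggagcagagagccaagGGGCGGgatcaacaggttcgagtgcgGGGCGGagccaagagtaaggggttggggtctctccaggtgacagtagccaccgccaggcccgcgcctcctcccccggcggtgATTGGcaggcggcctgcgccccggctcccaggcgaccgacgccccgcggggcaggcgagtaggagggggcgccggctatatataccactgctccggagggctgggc
Fgf5, chr5:98253934-98254183, plus strand: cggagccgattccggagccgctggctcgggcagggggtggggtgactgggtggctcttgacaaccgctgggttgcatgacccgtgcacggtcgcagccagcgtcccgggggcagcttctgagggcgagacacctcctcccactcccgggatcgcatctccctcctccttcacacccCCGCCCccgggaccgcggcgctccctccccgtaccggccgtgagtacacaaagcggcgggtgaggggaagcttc
Fgfr3, chr5:33721474-33721723, plus strand: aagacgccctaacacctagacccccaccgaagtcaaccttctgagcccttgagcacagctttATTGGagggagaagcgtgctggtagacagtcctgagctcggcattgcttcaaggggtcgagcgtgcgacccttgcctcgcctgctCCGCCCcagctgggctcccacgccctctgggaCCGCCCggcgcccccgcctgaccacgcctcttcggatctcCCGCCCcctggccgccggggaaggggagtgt
The Fgf4 window held 2 GC boxes and 1 CCAAT box, the Fgf5 window 1 GC box and no CCAAT box, and the Fgfr3 window 3 GC boxes and 1 CCAAT box. Of 32851 promoter windows of the same length, 32.7% held a GC box and 33.8% a CCAAT box. The base composition of the windows was 71.2% G and C for Fgf4, 70.8% for Fgf5 and 66.8% for Fgfr3, against a median of 52.4% over all windows. A second annotated start of Fgfr3 had 2 GC boxes that overlap each other by 1 base. The letters of the TATA box TATAAA, found in 12.4% of all windows, and of the octamer ATGCAAAT, found in 1.6%, were not in the windows of the 6 FGF genes with an entry. Only these exact letters were searched. Near matches were therefore not counted, among them the run tatatata close to the end of the Fgf4 window.

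The markers on the arrays bear on the labels. All 7 genes of a pluripotent cell list (Pou5f1, Nanog, Sox2, Zfp42, Esrrb, Klf4 and Tbx3) lay above background on some array of every group. Their summed signal was 7839 to 8589 on BPA day8 arrays, 6335 to 8815 on NP day8 arrays, 1839 to 2498 on control day8 arrays and 12608 to 13500 on control day0 arrays. Markers of feeder fibroblasts, 9 of 10 of which were on the array table, summed to 680 to 854 on BPA day8 arrays, 533 to 875 on NP day8 arrays, 5791 to 8559 on control day8 arrays and 6507 to 8587 on control day0 arrays. The similar sums of the control groups hold feeder markers that moved in opposite directions: 3 of the 9 were higher and 5 lower in control day8 than in control day0, against 48.7% of all genes called. S100a4 was at least 102-fold, Thy1 at least 23.5-fold and Mmp3 at least 11.6-fold lower, while Postn averaged 11.08 in control day8 and 8.57 in control day0 on the log2 scale and Col3a1 11.41 and 10.38. Relative to control day0, all 9 were lower with BPA and all 9 with NP, against 33.6% and 32.1% of all genes called. Endoderm markers (9 genes) summed to 6926 to 9892 with BPA, 11720 to 12992 with NP, 7160 to 13112 in control day8 and 151 to 185 in control day0, where Hnf4a, Afp and Ttr were below background. Cardiac markers (6 genes) summed to 187 to 406 with BPA, 227 to 1138 with NP, 2673 to 3795 in control day8 and 78.9 to 113.8 in control day0, where Tnnt2 and Hand2 were below background. In bulk samples, fewer cells of a type and less RNA per cell cannot be told apart. The part of these cell types in the results on FGF genes was not tested.

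Signals are given as log2 values of the MAS5 signal. A change is a difference of log2 group means with its standard error from the linear model, and the adjusted p-values are those of limma with Benjamini-Hochberg adjustment over the genes tested. The highest value of the bacterial control probe sets, a log2 signal of 3.41, served as the background level. Brightness depends on the probe set, so levels were compared within a probe set only.

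**Figure D1:**
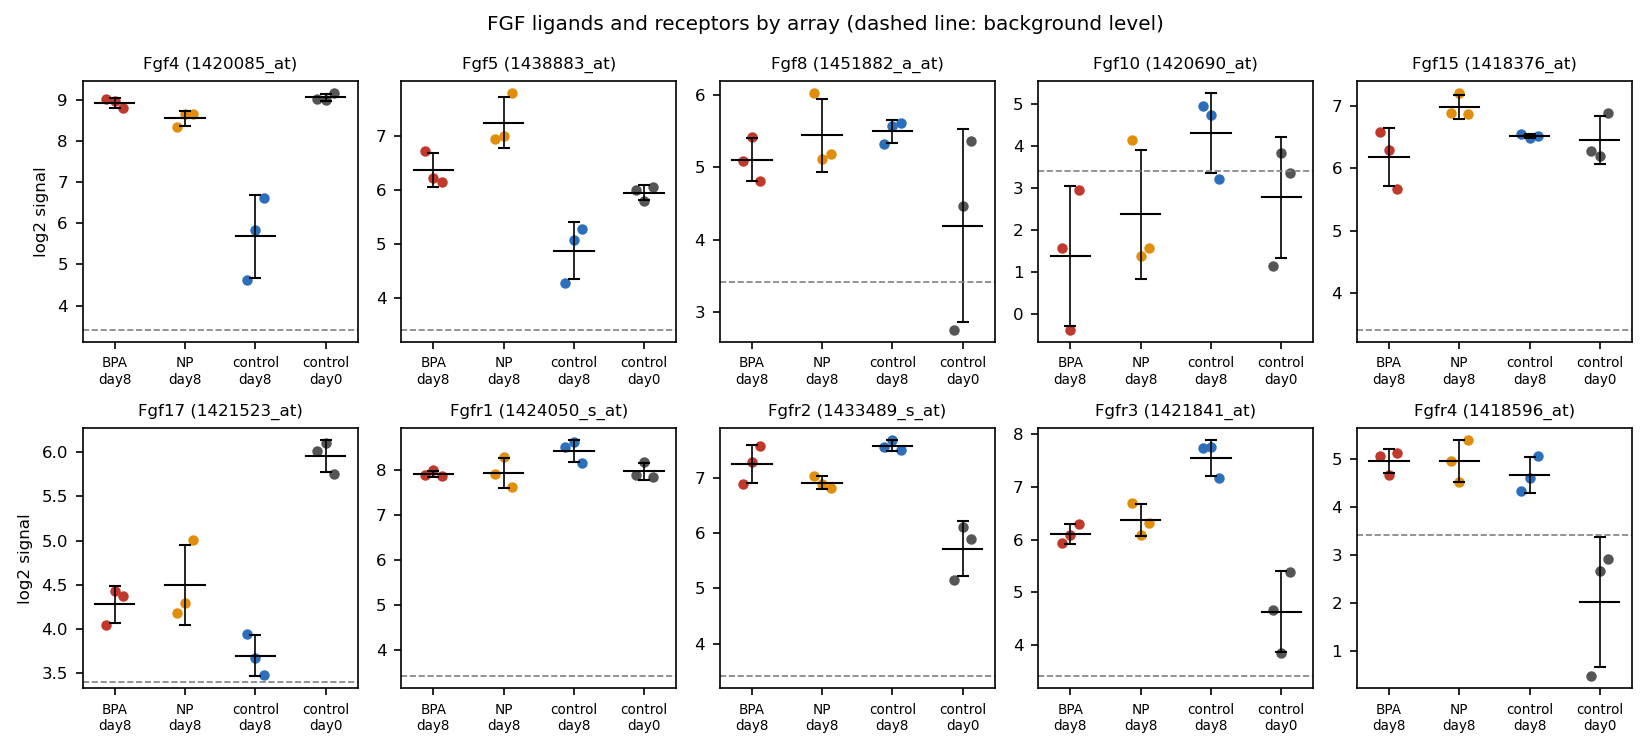
Log2 signal (y axis) of the main probe set of each FGF gene in the 4 groups (x axis), with a point for each array, a line at the mean and a bar of 1 SD (n = 3). Fgf4 lies at 8.34 to 9.15 in 3 of the groups and at 4.61 to 6.61 in control day8, and Fgfr4 lies below the background level of 3.41 on all 3 control day0 arrays.

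Fgf4, the ligand of the pluripotent cells, had log2 signals of 9.01, 8.97 and 8.79 on the BPA day8 arrays and 8.34, 8.65 and 8.65 on the NP day8 arrays. The control day8 arrays had 4.61, 5.84 and 6.61, and the control day0 arrays had 9.03, 8.99 and 9.15. Every day 8 control array lay below every array of the other 3 groups. Over differentiation without an agent, Fgf4 fell by 3.37 ± 0.39 on the log2 scale, a level 10.3-fold lower in control day8 than in control day0 (adjusted p = 0.000109). It was 9.42-fold higher in BPA day8 than in control day8 (log2 change 3.24 ± 0.39, adjusted p = 0.000754) and 7.26-fold higher in NP day8 than in control day8 (2.86 ± 0.39, adjusted p = 0.0023). Against the day 0 cells the changes were −0.13 with BPA (adjusted p = 0.822; 95% interval −1.02 to 0.75) and −0.51 with NP (adjusted p = 0.357; −1.39 to 0.37), neither past the threshold, though the change with NP passed with only the compared groups in the fit (adjusted p = 0.0423). Each of the NP arrays nevertheless lay below each BPA and each day 0 array. The order of the means was control day0, BPA day8, NP day8 and control day8, with adjusted p-values between neighbours of 0.822, 0.847 and 0.0023. The control day8 arrays spread by 1.01 (SD), more than those of any other group for this gene.

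The other 3 probe sets of Fgf4 had the same directions in these 3 comparisons. Tested probe set by probe set, 1420086_x_at changed by 3.10 with BPA, 2.61 with NP and −3.27 over differentiation, and 1450282_at by 1.17 (adjusted p = 0.0321), 1.01 (adjusted p = 0.0785) and −1.47 (adjusted p = 0.0045). The dimmest of them, 1449729_at, passed in none of the 3. The pluripotent markers moved together with Fgf4. Of these, 6 of 7 passed as higher with BPA, 6 of 7 as higher with NP and 7 of 7 as lower over control differentiation. Their median changes were 2.15, 1.89 and −2.80, and 22.2%, 14.2% and 48.7% of all genes passed. The genes whose pattern over the 12 arrays was most like that of Fgf4, each gene centred on its own mean, were Fbxo15, 1700029P11Rik and Dppa4. Their root mean square differences from it were 0.25, 0.26 and 0.28, against a median of 1.52 over all genes tested. The control day8 mean of 1700029P11Rik, 2.02, was below background.

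Fgf5, the ligand that marks the epiblast after implantation, had log2 signals of 6.72, 6.21 and 6.14 with BPA, 6.93, 6.99 and 7.78 with NP, 4.27, 5.06 and 5.27 in control day8 and 5.99, 5.79 and 6.05 in control day0. No values of any 2 groups overlapped, and NP day8 was the highest. Fgf5 was 2.81-fold higher in BPA day8 than in control day8 (1.49 ± 0.30, adjusted p = 0.00774) and 5.15-fold higher in NP day8 than in control day8 (2.36 ± 0.30, adjusted p = 0.00162). Over control differentiation it fell by 1.07 ± 0.30 (adjusted p = 0.015). It was also 2.45-fold higher with NP than in the day 0 cells (1.29 ± 0.30, adjusted p = 0.00996), while the change of 0.41 with BPA against day 0 missed the threshold (adjusted p = 0.327). The order of the means was NP day8, BPA day8, control day0 and control day8, with adjusted p-values between neighbours of 0.488, 0.327 and 0.015.

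A second probe set of Fgf5, 1426186_a_at, was too dim to be kept, with values of −0.42 to 3.65 with BPA, 0.51 to 4.44 with NP, −1.16 to 3.16 in control day8 and 3.29 to 3.58 in control day0. With all probe sets of a gene averaged, an alternative chosen after seeing the data, the change of Fgf5 with NP against day 0 turned to −0.08. Its calls against control day8 with BPA (adjusted p = 0.578) and NP (0.358) and over control differentiation (0.17) were also lost there, with directions kept. Markers of the primed epiblast (Otx2, Pou3f1, Dnmt3b, Sox3 and Foxd3) summed to 2511 to 2783 with BPA, 2398 to 3288 with NP, 1058 to 1236 in control day8 and 2175 to 2508 in control day0. Against control day8, 3 of the 5 passed as higher with BPA and 4 with NP. Over control differentiation 3 passed as lower and 1, Otx2, as higher. Over all genes, 22.2%, 14.2% and 48.7% passed. Without the filter, Otx2 lost its calls over control differentiation (adjusted p = 0.0525) and with NP (0.057). None of the 5 was below background in any whole group, and their part in the result was not tested. The genes most like Fgf5 over the 12 arrays were Pim2, Porcn and Pou3f1, with root mean square differences of 0.34, 0.39 and 0.40 against a median of 0.99.

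Fgf17, a ligand of the Fgf8 subfamily known for its part in patterning the midbrain and hindbrain, had log2 signals of 4.04, 4.43 and 4.38 with BPA and 4.19, 4.30 and 5.01 with NP. It had 3.94, 3.68 and 3.48 in control day8, close above background, and 6.01, 6.11 and 5.75 in control day0. All 9 arrays from day 8 lay below all 3 from day 0. Fgf17 fell by 2.26 ± 0.23 over control differentiation, a level 4.78-fold lower (adjusted p = 4.69e-05). It was lower than at day 0 by a log2 change of −1.67 ± 0.23 with BPA (adjusted p = 0.000601) and −1.46 ± 0.23 with NP (adjusted p = 0.00131). Against control day8 the change was 0.58 ± 0.23 with BPA (adjusted p = 0.0948) and 0.80 ± 0.23 with NP (adjusted p = 0.0446), and neither agent's arrays overlapped those of control day8. Without NP day8 replicate 3 the adjusted p with BPA was 0.0337. The call with NP is a narrow one: it was lost when any 1 of 11 arrays was left out, NP replicate 1 being the exception, with adjusted p-values of up to 0.112 and a change of 0.54 without NP replicate 3. It was also lost under 6 settings with all arrays kept, with an adjusted p of 0.065 with a pseudocount of 16, 0.0808 without the filter, 0.0572 with kept probe sets averaged, 0.119 with a trended and robust prior, 0.131 with only the compared groups and 0.0813 with the replicate number as a block.

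The second probe set of Fgf17, 1456239_at, lay at 4.83, 4.58 and 4.91 in control day0, and 8 of its 9 values from day 8 were below background. Fblim1, Pnldc1 and 2700038G22Rik were the genes most like Fgf17, with root mean square differences of 0.20, 0.25 and 0.26 against a median of 1.02.

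The remaining ligands gave no call in any comparison under the main settings. Fgf8, a ligand of the primitive streak and of many signalling centres of the embryo, had log2 signals of 5.09, 5.41 and 4.81 with BPA, 6.02, 5.11 and 5.19 with NP, 5.32, 5.57 and 5.61 in control day8 and 2.75, 4.46 and 5.37 in control day0. The day 0 arrays spread the most, and 1 of them was below background. The change over control differentiation was 1.31 ± 0.55 (adjusted p = 0.0768), and without control day0 replicate 3 it was 1.89 with an adjusted p of 0.0104. With all arrays kept it passed with a pseudocount of 16 (adjusted p = 0.0455), with 40% of the probe sets kept (0.0491), with a background floor (0.0485) and with a trended and robust prior (0.036). Without control day0 replicate 3, Fgf8 also passed against day 0 with BPA (1.50, adjusted p = 0.0396) and with NP (1.84, adjusted p = 0.0182). Fgf15, the mouse counterpart of human FGF19 and a hormone of the gut, had 6.58, 6.29 and 5.66 with BPA, 6.88, 7.20 and 6.86 with NP, 6.55, 6.48 and 6.52 in control day8 and 6.27, 6.20 and 6.89 in control day0. Its group means lay within 0.80 of one another, with NP the highest. Fgf4 and Fgf15 are neighbouring genes on chromosome 7 in the RefSeq annotation, next to Fgf3, and Fgf15 had changes of −0.34 with BPA (adjusted p = 0.366), 0.46 with NP (adjusted p = 0.252) and 0.07 over control differentiation (adjusted p = 0.85). Without control day0 replicate 3 its change with NP against day 0 was 0.75 (adjusted p = 0.0435).

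Fgf10, a ligand of mesenchyme that acts on the epithelium of the limb bud and lung, was below background on 8 of the 12 arrays. It had log2 signals of 1.57, −0.39 and 2.94 with BPA, 4.14, 1.38 and 1.57 with NP, 4.95, 4.73 and 3.21 in control day8 and 1.13, 3.82 and 3.36 in control day0. The BPA arrays were all below background, and each of them was below each control day8 array. The lowest control day8 array, at 3.21, was itself below background. With no filter on dim probe sets, its adjusted p was 0.123 for BPA against control day8, 0.362 for NP against control day8 and 0.349 over control differentiation.

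Among the receptors, Fgfr3, a receptor known for restraining growth of cartilage, changed with BPA as well as with differentiation. Its log2 signals were 5.94, 6.09 and 6.30 with BPA, 6.70, 6.10 and 6.31 with NP, 7.74, 7.76 and 7.16 in control day8 and 4.67, 3.85 and 5.39 in control day0. The arrays of both agents lay between those of the control groups and overlapped neither. Fgfr3 was 7.58-fold higher in control day8 than in control day0 (2.92 ± 0.35, adjusted p = 0.000126). With BPA it was 2.73-fold lower than in control day8 (−1.45 ± 0.35, adjusted p = 0.0163), and with NP the change was −1.19 ± 0.35 (adjusted p = 0.0502). Both agents' cells were above the day 0 cells, by 1.47 ± 0.35 with BPA (adjusted p = 0.00998) and 1.74 ± 0.35 with NP (adjusted p = 0.00477).

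The call of Fgfr3 with BPA was lost without control day8 replicate 1 (adjusted p = 0.0588), without control day8 replicate 2 (0.0548) and when BPA day8 replicate 1 was left out (0.0542), with changes of −1.35, −1.35 and −1.36. The change with NP passed with all arrays kept under a pseudocount of 16 (adjusted p = 0.00881), 40% of the probe sets kept (0.0275), a background floor (0.033) and a trended and robust prior (0.0135). It also passed without control day0 replicate 2 (adjusted p = 0.0211), without control day0 replicate 3 (0.0216) or without control day8 replicate 3 (0.0461). Cardiac markers moved the same way, 5 of 6 passing as lower with BPA, 5 of 6 as lower with NP and 5 of 6 as higher over control differentiation. Over all genes, 22.2%, 14.2% and 48.7% passed. The part of the cardiac markers in the result was not tested. Mfhas1, Cdon and Zfp362 had the patterns most like that of Fgfr3, with root mean square differences of 0.22, 0.23 and 0.24 against a median of 1.16. The second probe set of Fgfr3, 1425796_a_at, was below background on all 12 arrays.

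Fgfr2, a receptor of primitive endoderm, trophoblast and epithelia, had log2 signals of 6.88, 7.28 and 7.57 with BPA, 7.04, 6.88 and 6.82 with NP, 7.55, 7.68 and 7.49 in control day8 and 5.15, 6.10 and 5.88 in control day0. Every array from day 8 was above every array from day 0. Fgfr2 was 3.64-fold higher in control day8 than in control day0 (1.86 ± 0.24, adjusted p = 0.000215), and the changes against day 0 were 1.53 ± 0.24 with BPA (adjusted p = 0.0014) and 1.20 ± 0.24 with NP (adjusted p = 0.0051). Against control day8 they were −0.33 with BPA (adjusted p = 0.374) and −0.67 with NP (adjusted p = 0.104), where the NP arrays all lay lower. The change with NP passed with a pseudocount of 16 (adjusted p = 0.0481), with a trended and robust prior (0.0451), with only the compared groups (0.0436) and without control day0 replicate 1 (0.0398). A second probe set, 1420847_a_at, changed by 0.92 over control differentiation (adjusted p = 0.0315). Against day 0 it passed neither with BPA (0.68, adjusted p = 0.121) nor with NP (0.30, adjusted p = 0.508).

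Fgfr4, the receptor that serves Fgf15 and its human counterpart in liver, had log2 signals of 5.07, 4.68 and 5.14 with BPA, 4.97, 4.52 and 5.40 with NP, 4.34, 4.61 and 5.07 in control day8 and 0.46, 2.67 and 2.92 in control day0. All day 0 arrays were below background, so the folds against them are lower bounds. The p-values beside them are those of the values as deposited. Fgfr4 was at least 2.41-fold higher in control day8 (adjusted p = 0.00342), at least 2.94-fold higher in BPA day8 (adjusted p = 0.00343) and at least 2.94-fold higher in NP day8 (adjusted p = 0.0037) than in control day0. The 3 groups from day 8 overlapped, and the change against control day8 was 0.29 ± 0.56 for either agent (adjusted p = 0.756 with BPA and 0.784 with NP). Endoderm markers moved with it, 9 of 9 passing as higher in each of the 3 groups from day 8 than in control day0. Over all genes, 48.7% passed for control day8, 33.6% for BPA day8 and 32.1% for NP day8. The part of the endoderm markers in the result was not tested. Six6, F2 and Rab20 were the genes most like Fgfr4, with root mean square differences of 0.34, 0.35 and 0.39 against a median of 1.40. That likeness rests in part on values below background, where the day 0 means of Fgfr4, Six6 (1.93) and Rab20 (2.34) lay. Of the other 4 probe sets of Fgfr4, 1427846_x_at was below background on all 3 control day0 arrays and at least 1.57-fold higher in control day8 than in control day0 (adjusted p = 0.0166), and 3 were too dim to be kept.

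Fgfr1, the receptor through which embryonic stem cells and epiblast mainly respond to FGF, had the narrowest range of group means of the 10 genes. It had log2 signals of 7.89, 8.0 and 7.87 with BPA, 7.92, 8.30 and 7.62 with NP, 8.52, 8.63 and 8.17 in control day8 and 7.90, 8.20 and 7.85 in control day0. The group means lay within 0.52 of one another, with control day8 the highest. The changes were −0.52 ± 0.19 with BPA (adjusted p = 0.0747), −0.49 ± 0.19 with NP (adjusted p = 0.114) and 0.46 ± 0.19 over control differentiation (adjusted p = 0.0685). With the replicate number as a block all 3 passed, with adjusted p-values of 0.0226, 0.0407 and 0.0163, and so they did with a trended and robust prior, with 0.0269, 0.0464 and 0.0283. With 40% of the probe sets kept, the change with BPA (adjusted p = 0.0481) and that over control differentiation (0.0467) passed. Single arrays also decided the call: the change with BPA passed without control day8 replicate 3 (adjusted p = 0.0408) or NP day8 replicate 2 (0.0482), and that over control differentiation without control day8 replicate 3 (0.0336), NP day8 replicate 2 (0.0401) or NP day8 replicate 3 (0.0445). The probe set 1436551_at changed by −0.67 with BPA (adjusted p = 0.0558), −0.08 with NP (adjusted p = 0.857) and 0.77 over control differentiation (adjusted p = 0.0149). The probe set 1425911_a_at had the opposite signs, with control day8 replicate 3 at −1.09 against 4.64 and 5.13 on the other control day8 arrays. With that array set to the background level, the changes of this probe set were −0.39 with BPA, −0.40 with NP and 0.17 over control differentiation. Averaged over these probe sets, the change of Fgfr1 turned to 0.17 with NP and −0.04 over control differentiation.

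**Figure D2:**
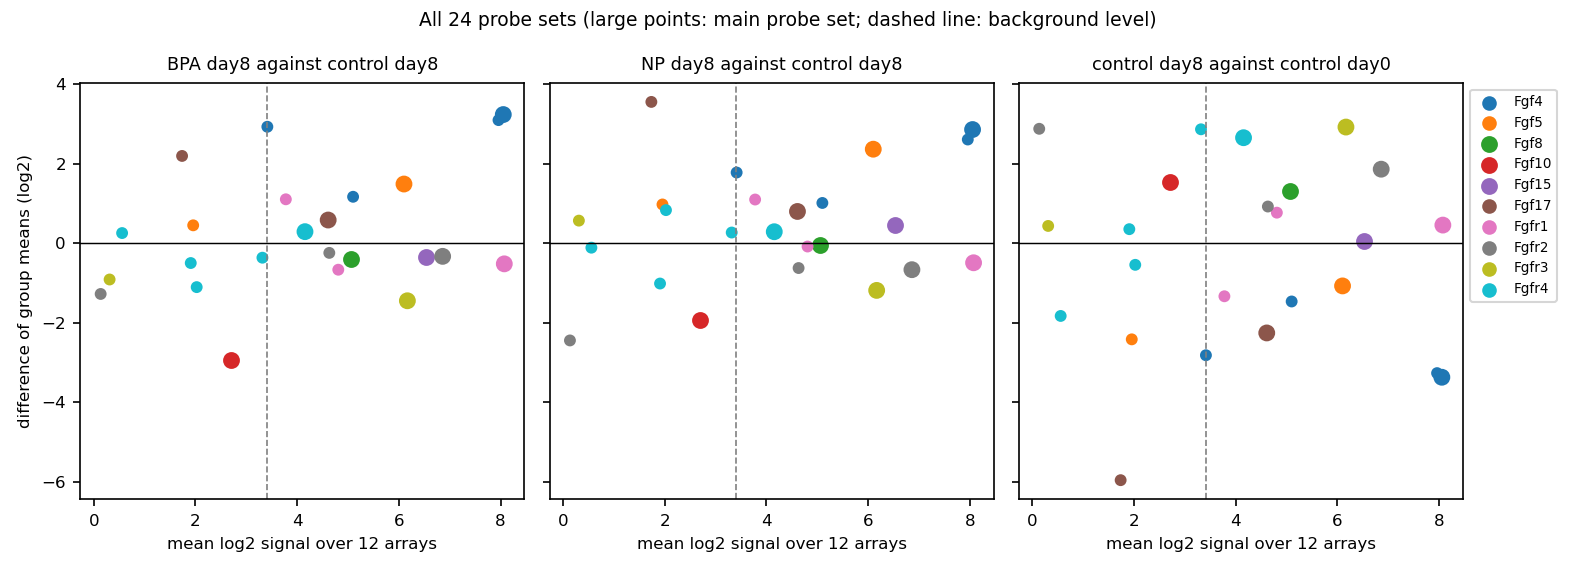
Difference of log2 group means (y axis) against the mean log2 signal over the 12 arrays (x axis) for all 24 probe sets of the FGF genes, in 3 comparisons, with the main probe sets drawn large. The Fgf4 probe sets lie above 0 with each agent and below 0 over control differentiation, while probe sets left of the background level scatter to both sides.

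Counted together, 6 of the 9 tested FGF genes passed the threshold between control day8 and control day0, with Fgfr2, Fgfr3 and Fgfr4 higher and Fgf4, Fgf5 and Fgf17 lower, against 48.7% of all genes tested. Over all genes, 28.3% were higher and 20.5% lower. These 6 genes did not overlap between control day8 and control day0 arrays, and the same held for 56.8% of all genes. The median change of the 9 genes was 0.46, beside 0.12 for all genes.

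With BPA against control day8, 3 of the 9 passed (Fgf4 and Fgf5 higher, Fgfr3 lower), against 22.2% of all genes, 12% being higher and 10.2% lower. The groups of 5 of the 9 did not overlap, against 41.6% of all genes. The median change was −0.33 for the 9 genes and 0.04 for all genes. With NP against control day8, 3 of the 9 passed, Fgf4, Fgf5 and Fgf17 being higher, against 14.2% of all genes (7.9% higher and 6.28% lower). The groups of 6 did not overlap, against 34.8%, and the median change was 0.29 for the 9 genes and 0.01 for all genes. These 3 comparisons share the control day8 arrays, so a gene that is low on those arrays can differ in all 3.

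**Figure D3:**
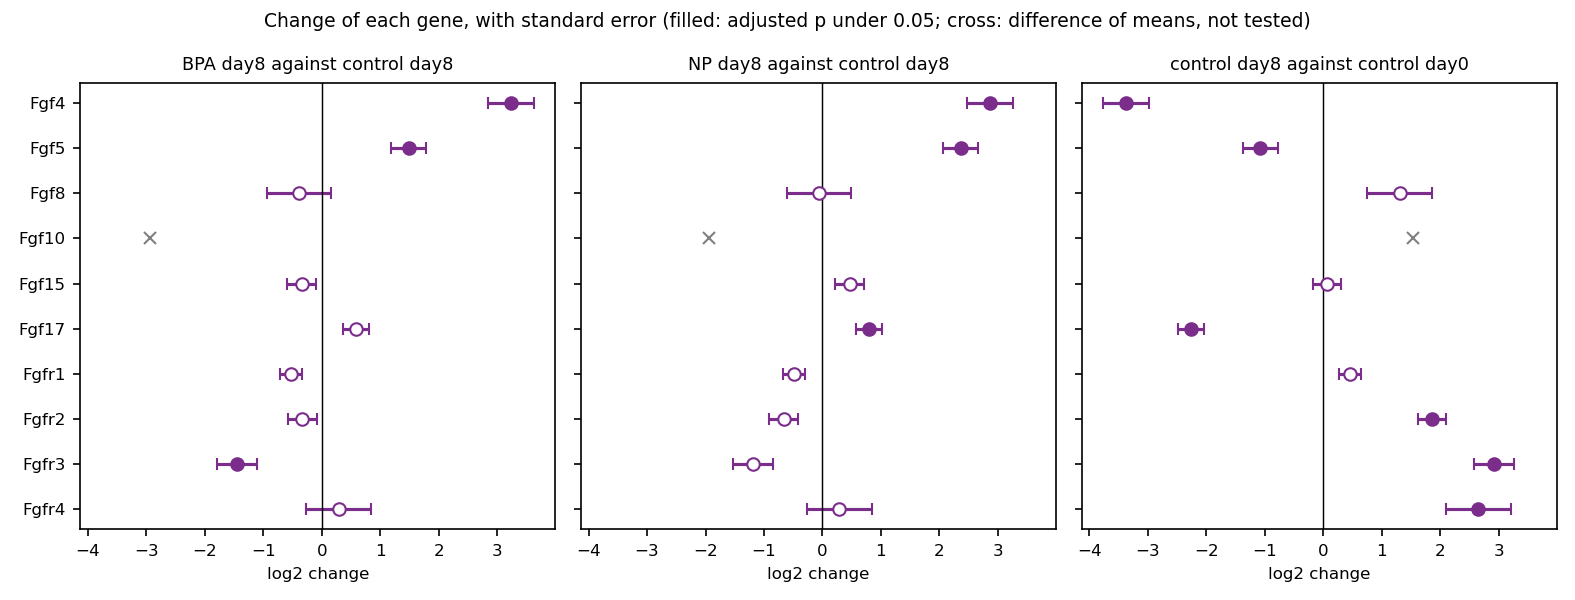
Log2 change of each FGF gene (x axis) with its standard error in 3 comparisons, filled where the adjusted p is under 0.05, and a cross for Fgf10, which was not tested. Fgf4 and Fgf5 lie to the right with both agents and to the left over control differentiation, and Fgfr3 lies on the opposite sides.

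Between NP day8 and BPA day8, none of the 9 genes passed (limma), while 2 were under an unadjusted p of 0.05, and 0.00765% of all genes passed, which is 1 gene. The share of all genes under an unadjusted p of 0.05 was not counted. The groups of 3 of the 9 did not overlap, against 17.0% of all genes. Fgf5 was 0.88 higher with NP (adjusted p = 0.488; 95% interval before adjustment 0.20 to 1.55), and Fgf15 was 0.80 higher with NP (adjusted p = 0.441; 0.25 to 1.35). For Fgf4 the difference was −0.38 (−1.26 to 0.50), for Fgfr3 0.26 (−0.52 to 1.04) and for Fgf17 0.22 (−0.29 to 0.72). These intervals do not show that the agents act alike, and the doses behind them are not given in the labels.

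Against the day 0 cells, 4 of the 9 genes passed with BPA, against 33.6% of all genes, and 5 passed with NP, against 32.1%. Fgfr2, Fgfr3 and Fgfr4 were higher and Fgf17 lower in both, and Fgf5 was higher with NP. Over all genes, 21.7% were higher and 11.9% lower with BPA, and 20.2% were higher and 11.9% lower with NP. The groups of 5 genes did not overlap with BPA, against 49.4% of all genes, and those of 6 did not with NP, against 47.6%.

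The other genes of the pathway were taken from 5 lists by role. The first list held 16 other genes of the FGF family on the array table, 9 of them tested. With BPA 1 was higher and none lower, and with NP none passed (limma, with 1 under an unadjusted p of 0.05, a level not counted over all genes). In control day8, 1 was higher and 1 lower than in control day0. Over all genes, 22.2% passed with BPA, 14.2% with NP and 48.7% over control differentiation. Fgf1, an FGF that binds all the receptors, averaged 4.30 ± 0.21 with BPA, 3.90 ± 0.53 with NP, 3.09 ± 0.29 in control day8, where it was below background, and 4.52 ± 0.24 in control day0 (SD, n = 3 each). It was thus at least 1.85-fold higher in BPA day8 than in control day8 (adjusted p = 0.0108) and at least 2.17-fold lower in control day8 than in control day0 (adjusted p = 0.00162). The call with BPA was lost when its kept probe sets were averaged (adjusted p = 0.359) and with a trended and robust prior (0.0673). Fgf3, next to Fgf4 on chromosome 7, averaged 4.24 ± 0.21 in control day8 and 3.35 ± 0.61 in control day0, the day 0 mean being below background. It was at least 1.56-fold higher in control day8 than in control day0 (adjusted p = 0.0436). That call was lost when any 1 of 7 arrays was left out, all 3 of control day8 among them, with adjusted p-values of up to 0.153. It was also lost under 7 settings with all arrays kept, with adjusted p-values of 0.0552 (background floor) to 0.123 (trended and robust prior), and the change turned to −0.18 when its kept probe sets were averaged (adjusted p = 0.839). The 9 genes of this list had a median change of −0.21 with BPA, 0.27 with NP and 0.06 over control differentiation, or 0.0, 0.27 and −0.01 with genes below background at their bounds.

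Of the 8 tested co-receptors, decoys and carriers of FGF, 1 was higher and 2 were lower with BPA, 2 were lower with NP, and 3 were higher and 2 lower in control day8 than in control day0, against 22.2%, 14.2% and 48.7% of all genes called. Fgfrl1, a receptor that lacks the kinase domain, averaged 6.62 ± 0.20 with BPA, 7.02 ± 0.25 with NP, 7.82 ± 0.08 in control day8 and 6.38 ± 0.28 in control day0. It rose by 1.45 over control differentiation (adjusted p = 0.000139), and it fell by 1.20 with BPA (adjusted p = 0.0018) and by 0.80 with NP (adjusted p = 0.0176) relative to control day8. The call with NP was lost when any 1 of 4 arrays was left out, with adjusted p-values of up to 0.0659. It was also lost with the kept probe sets of Fgfrl1 averaged (adjusted p = 0.0639). Klb, the co-receptor with which Fgfr4 binds Fgf15, averaged 6.86 ± 0.18 with BPA, 7.31 ± 0.24 with NP, 6.96 ± 0.56 in control day8 and 3.55 ± 0.60 in control day0. Its change over control differentiation was 3.41 ± 0.33 (adjusted p = 4.22e-05), and it passed with neither agent against control day8. Flrt3, a membrane protein that binds FGF receptors, rose by 3.87 ± 0.18 over control differentiation and fell by 0.81 ± 0.18 with BPA (adjusted p = 0.0119). Flrt2, its relative, was lower with NP than in control day8 (−0.87, adjusted p = 0.023) and lower in control day8 than in control day0 (−0.63, adjusted p = 0.0277), and Fgfbp1, a carrier that frees FGF from the matrix, was higher with BPA (0.91, adjusted p = 0.0176). These 3 calls were lost when any 1 of 4, 2 and 3 arrays was left out, with adjusted p-values of up to 0.0856, 0.099 and 0.0677. With only the compared groups in the fit, both Flrt2 calls were lost (adjusted p = 0.0776 with NP and 0.102 over control differentiation). With its kept probe sets averaged, Flrt2 changed by −0.09 over control differentiation (adjusted p = 0.824).

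Of the 18 tested heparan sulfate genes, which make the sugar chains or the proteins that carry them, 7 were lower and 1 was higher with BPA, 3 were lower and none higher with NP, and 8 were higher and 1 lower in control day8 than in control day0, against 22.2%, 14.2% and 48.7% of all genes called. Hs6st2, a sulfotransferase of the chains, averaged 6.37 ± 0.42 with BPA, 6.83 ± 0.38 with NP, 8.51 ± 0.28 in control day8 and 7.64 ± 0.09 in control day0. It fell by 2.14 ± 0.25 with BPA (adjusted p = 0.000638) and by 1.69 ± 0.25 with NP (adjusted p = 0.00306), a call lost with NP when its kept probe sets were averaged (adjusted p = 0.106). Gpc6, a glypican, fell by 1.37 ± 0.18 with BPA (adjusted p = 0.00101) and by 0.98 ± 0.18 with NP (adjusted p = 0.00796; 0.0619 with only the compared groups in the fit), and it rose by 2.36 ± 0.18 over control differentiation. Gpc3, another glypican, averaged 9.46 ± 0.17 with BPA, 10.03 ± 0.30 with NP, 10.78 ± 0.11 in control day8 and 7.34 ± 0.44 in control day0, and it passed with BPA (−1.32 ± 0.22, adjusted p = 0.00354) but not with NP (adjusted p = 0.0528). Sdc2, a syndecan, averaged 5.95 ± 0.39 with BPA, 5.94 ± 0.12 with NP, 7.24 ± 0.19 in control day8 and 6.28 ± 0.16 in control day0. It fell by 1.30 ± 0.19 with BPA (adjusted p = 0.00185) and by 1.30 ± 0.19 with NP (adjusted p = 0.00304; 0.0621 with its kept probe sets averaged). The syndecan Sdc4 was the gene that was higher with BPA (0.70, adjusted p = 0.0143), a call lost without control day8 replicate 1 or BPA day8 replicate 1. Over control differentiation the chain polymerase gene Ext2 was higher (1.22, adjusted p = 0.000837) and the epimerase gene Glce lower (−0.53, adjusted p = 0.00244; 0.207 with its kept probe sets averaged). The list had a median change of −0.26 with BPA, −0.23 with NP and 0.51 over control differentiation, beside 0.04, 0.01 and 0.12 for all genes.

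Of the 15 tested receptor adaptors and kinases of the RAS and ERK cascade, 2 were higher and 1 lower with BPA, none was higher and 1 lower with NP, and 5 were higher and 1 lower in control day8 than in control day0, against 22.2%, 14.2% and 48.7% of all genes called. Sos2, an exchange factor that loads RAS, rose by 2.40 ± 0.32 over control differentiation (adjusted p = 0.000256), with means of 7.75 ± 0.11 in control day8 and 5.35 ± 0.81 in control day0. Gab1, a docking protein of the receptors, fell by 0.61 ± 0.11 over control differentiation (adjusted p = 0.00137). Plcg1, a phospholipase that the receptors recruit, and Ptpn11, a phosphatase that passes the signal on, were higher in control day8 than in control day0 by 0.92 and 0.73 (adjusted p = 0.00883 and 0.00044), Ptpn11 losing the call when its kept probe sets were averaged (adjusted p = 0.133). The changes that passed with an agent were all under 0.50 in size: with BPA the adaptor Grb2 (0.49) and Gab1 (0.44) were higher and Ptpn11 lower (−0.42), and with NP Ptpn11 was lower (−0.40). Each of these 4 calls was lost when any 1 of 3 to 7 arrays was left out, with adjusted p-values of up to 0.123. Each was also lost with kept probe sets averaged, with adjusted p-values of 0.0863 (Gab1 with BPA) to 0.343 (Ptpn11 with BPA).

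Genes that FGF and ERK signals are known to induce, feedback inhibitors among them, formed a list of which 15 were tested. With BPA 3 of them were higher and 1 lower, with NP 5 were higher and none lower, and 3 were higher and 6 lower in control day8 than in control day0, against 22.2%, 14.2% and 48.7% of all genes called. Etv5, an ETS transcription factor, averaged 9.60 ± 0.15 with BPA, 9.54 ± 0.19 with NP, 8.16 ± 0.22 in control day8 and 9.91 ± 0.12 in control day0 (SD, n = 3 each). It rose by 1.44 ± 0.15 with BPA (adjusted p = 0.000383) and by 1.38 ± 0.15 with NP (adjusted p = 0.000892), and it fell by 1.75 over control differentiation. Spry4, a feedback inhibitor of the RAS cascade, averaged 6.93 ± 0.06 with BPA, 7.30 ± 0.51 with NP, 5.71 ± 0.33 in control day8 and 7.83 ± 0.44 in control day0. Its changes were 1.22 ± 0.29 with BPA (adjusted p = 0.0153), 1.59 ± 0.29 with NP (adjusted p = 0.00796) and −2.12 ± 0.29 over control differentiation (adjusted p = 0.000279), and those with the agents were lost when its kept probe sets were averaged (adjusted p = 0.0897 and 0.121).

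Etv4, a relative of Etv5, was below background on all control day8 arrays and averaged 4.49 ± 0.65 with BPA, 3.99 ± 1.57 with NP and 6.63 ± 0.22 in control day0. It was at least 9.32-fold lower in control day8 than in control day0 (adjusted p = 0.00151), and its changes with the agents against control day8 did not pass (adjusted p = 0.0683 with BPA and 0.174 with NP). Phlda1 and the feedback inhibitor Spry1 rose over control differentiation, by 2.26 ± 0.30 (adjusted p = 0.000222) and 1.50 ± 0.20 (adjusted p = 0.000225). The cell cycle gene Ccnd1 fell by 1.93 ± 0.17, and its day 8 means were 8.51 ± 0.10 with BPA, 8.88 ± 0.11 with NP and 8.67 ± 0.36 in control day8, against 10.60 ± 0.08 in control day0. With BPA the inhibitor Spred1 was lower (−0.64, adjusted p = 0.00977) and Spred2 higher (0.35, adjusted p = 0.0448), and with NP the inhibitor Il17rd was higher (0.67, adjusted p = 0.0302). The call of Spred2 was lost when any 1 of 10 arrays was left out and that of Il17rd with any 1 of 5, with adjusted p-values of up to 0.134 and 0.103. Both calls were also lost with kept probe sets averaged (adjusted p = 0.425 for Spred2 and 0.13 for Il17rd). The list's median change was 0.11 with BPA, 0.21 with NP and −0.30 over control differentiation. Between NP day8 and BPA day8, 0 of the 65 tested genes of the 5 lists passed (limma), against 0.00765% of all genes. Of the 65, 7 were under an unadjusted p of 0.05, a level not counted over all genes.

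Against the day 0 cells, 24 of these 65 genes passed with BPA, against 33.6% of all genes, and 24 passed with NP, against 32.1%. Among the other FGF family genes, Fgf7 was at least 2.71-fold lower with BPA (adjusted p = 0.0294) and Fgf3 at least 1.88-fold higher with NP (adjusted p = 0.0216). Klb and Flrt3 were higher, by 3.31 and 3.06 with BPA and by 3.77 and 3.35 with NP, Fgfrl1 was 0.65 higher with NP, and Flrt2 was lower (−1.21 with BPA and −1.50 with NP). Of the heparan sulfate genes, Gpc3, Sdc4 and Gpc6 were higher, by 2.12, 1.87 and 0.99 with BPA and by 2.69, 1.48 and 1.38 with NP. Hs6st2 was lower (−1.27 and −0.81), and so were Sulf1 (−1.09) and the polymerase gene Ext1 (−0.44) with BPA and Glce (−0.32) with NP.

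Of the adaptors and kinases, Sos2 was higher than at day 0 by 1.81 with BPA and 1.95 with NP, and Map2k1, a kinase that activates ERK, by 0.45 with either. Plcg1 was 0.88 higher with BPA, and with NP Ptpn11 was 0.33 higher and Gab1 lower (−0.35). Among the targets, Phlda1 and Spry1 were higher, by 1.45 and 1.16 with BPA and by 1.81 and 1.36 with NP, and Il17rd was 0.70 higher with NP. Ccnd1 (−2.10 and −1.72) and the early response gene Egr1 (−1.70 and −1.22) were lower with both agents, Spry4 (−0.90) with BPA and Etv4 (−2.64) with NP. Of these genes, Fgf7, Ext1, Plcg1 and Spry4 with BPA and Fgf3, Fgfrl1, Hs6st2, Glce, Map2k1, Ptpn11, Gab1 and Etv4 with NP lost their call when 1 array was left out, Ptpn11 with any of the 12. With kept probe sets averaged, Gpc6 (adjusted p = 0.13), Hs6st2 (0.0794) and Spry4 (0.135) lost their call with BPA. So did Hs6st2 (0.917), Glce (0.623), Fgf3 (0.155), Il17rd (0.151) and Etv4 (0.0596) with NP, where Ptpn11 turned to −0.045. Losses under other alternatives included Egr1 with NP with only the compared groups in the fit (adjusted p = 0.056). Map2k1 with BPA was lost under median centring (0.0665).

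**Figure D4:**
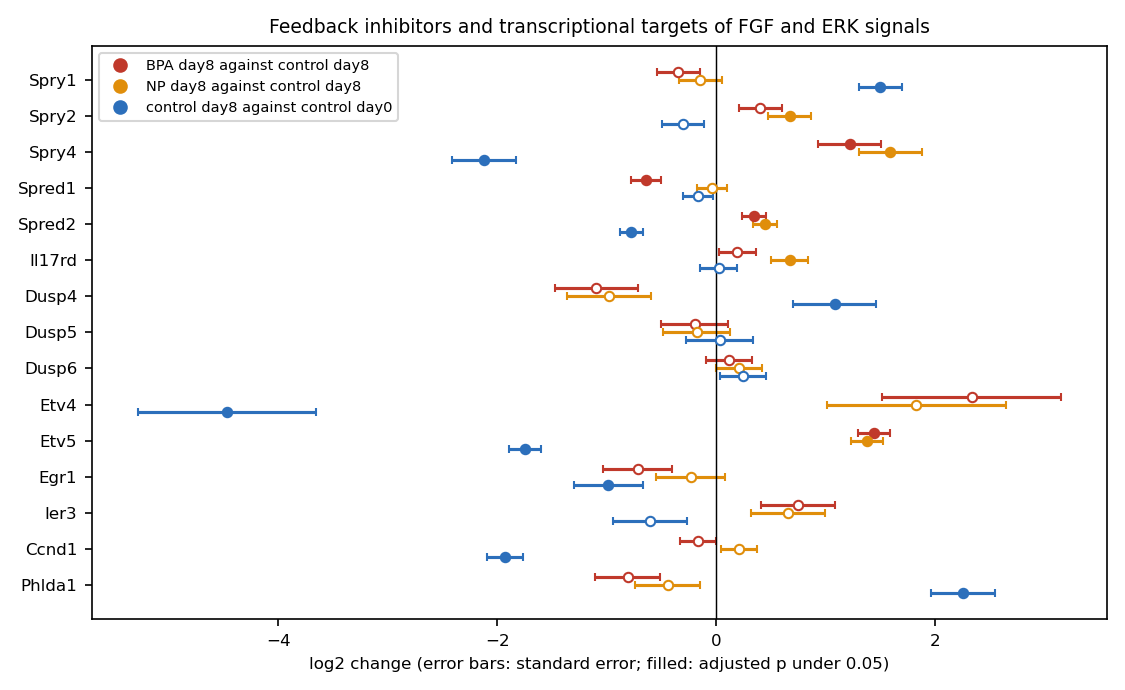
Log2 change (x axis) with its standard error for the 15 tested feedback inhibitors and targets of FGF and ERK signals, in 3 comparisons, filled where the adjusted p is under 0.05. Etv5 and Spry4 lie to the right with both agents and to the left over control differentiation, while Spry1 and Phlda1 lie to the right over control differentiation.

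**Figure D5:**
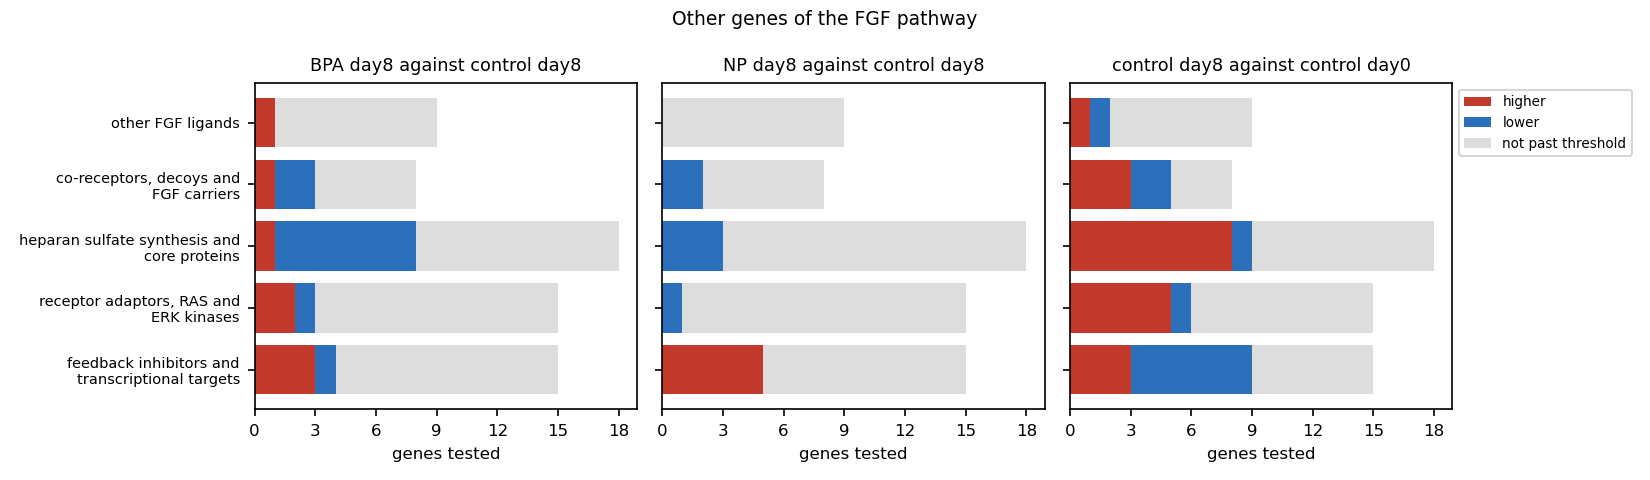
Number of genes tested (x axis) in each of 5 lists of other FGF pathway genes, split into higher, lower and not past the threshold, in 3 comparisons. The heparan sulfate list has 7 lower genes of 18 with BPA and 3 with NP, against 8 higher genes in control day8 relative to control day0.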

How the data were processed

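The authors deposited log2 signals per probe set for 12 Affymetrix arrays, made with MAS5 per the submitters' processing notes. The version and scaling target are not given in the sources used here. The mean signal of each array, trimmed by 2% at either end, was 100, so the arrays had been scaled to a common level. There were 45101 probe sets, including 64 controls. The platform's gene table listed 35890, with 1 gene for 34958 and several for 932, and matching to RefSeq by Entrez identifier changed 0 symbols.

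Values were used as deposited. Probe sets were ranked by their mean signal, the top 60% (27023) entered the test, and the brightest of these stood for each of 13067 genes. The linear model held 1 mean for each group and used all arrays (R 4.3.3, limma 3.58.1), with 8 residual degrees of freedom and 1.57 from the prior. P-values were 2-sided, with Benjamini-Hochberg adjustment over all genes tested and a threshold of 0.05. The background level is the highest value of 3 bacterial (TrpnX) probe sets on any array. A group with all 3 arrays below it was set to it, as was each array below it where a group mean lay below it, and the fold is then given as "at least". Adjusted p-values beside such folds come from the values as deposited, not from the bounded change. The method was tested on simulated data. Precision is limited by the number of arrays.

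The FGF genes and the lists were chosen with earlier results of these data known. Beside the FGF genes, the text names from each list up to 3 genes per direction with the largest changes among those past the threshold whose groups do not overlap. The genes with the most similar pattern are the 3 with the smallest root mean square difference, for FGF genes whose group means span at least 2. Arrays with the same replicate number deviated together weakly at most: 18 correlations of their deviations ranged from −0.01 to 0.08, and none was over 0.1. Replicate 3 of control day8 had correlations of 0.081 with replicate 3 of NP day8 and 0.078 with replicate 3 of BPA day8. Some genes of the lists were not analysed here. Alternatives were a pseudocount of 16, quantile normalization, median centring, other filters and probe set choices, a background floor, another variance prior, only the compared groups, a replicate block and each array left out in turn. Promoter windows came from a supplied set of RefSeq promoter sequences, which held entries for 6 of the 10 genes. The figures used Python 3.11.15 and matplotlib 3.10.9.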

Additional observations from a re-analysis of the deposited data

How the results depend on the processing

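The 21 calls on FGF genes were repeated under 22 alternatives, 12 of which left out 1 array, and 19 kept their call and direction in all of them. The exceptions were Fgfr3 with BPA and Fgf17 with NP, both against control day8. With 1 array left out, the number of FGF genes called ranged from 6 to 7 for control day8 against control day0, 2 to 4 for BPA against control day8, 2 to 3 for NP against control day8, 0 to 0 for NP against BPA, 4 to 5 for BPA against control day0 and 5 to 7 for NP against control day0. In the same order, these fits called 5515 to 6285, 1822 to 2949, 802 to 1874, 0 to 3, 3327 to 4477 and 3096 to 4351 of all 13067 genes. A trended and robust variance prior gave 5 calls for NP against control day8. The calls over all 13067 genes also rose there, to 2396 from 1852 in the main fit. Averaging all probe sets of a gene, chosen after seeing the data, brings in probe sets below background and left 1 call for BPA and 0 for NP against control day8, and 1 for BPA and 0 for NP against control day0, with 14 calls lost and 1 reversed. Of all 18193 genes, this setting called 1046 with BPA and 487 with NP against control day8, and 1859 and 1748 against control day0. The labels do not say whether arrays with the same replicate number belong together. With the replicate block, the calls were 7 for control day8 against control day0, 4 and 3 for BPA and NP against control day8, 0 between the agents, and 4 and 5 against control day0. The block fit called, in the same order, 6175, 2646, 1551, 0, 4147 and 3984 of all 13067 genes. Quantile normalization and median centring moved the median change of all genes over control differentiation to 0.01 from 0.12.

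Directions that turned belong to small changes or to averaged probe sets, and the cause was not tested. Over control differentiation, Fgf15 was −0.18 with quantile normalization, −0.045 with median centring and −0.060 to 0.28 with 1 array left out, and Fgfr1 was −0.036 with kept or all probe sets averaged. Against control day8, Fgfr4 with BPA was −0.037 with kept and −0.28 with all probe sets averaged, Fgfr1 with NP 0.17 with either, and Fgf8 with NP 0.00056 with quantile normalization and −0.35 to 0.11 with 1 array left out. Between NP and BPA, leaving out 1 array gave −0.041 to 0.37 for Fgf17, −0.15 to 0.19 for Fgfr1 and −0.22 to 0.22 for Fgfr4. There Fgfr4 was 0.0056 with the pseudocount, 0.012 with quantile normalization, 0.0063 with median centring, 0.32 with kept and 0.34 with all probe sets averaged. Against control day0, averaging all probe sets gave −0.78 for Fgf5 with BPA and −0.076 with NP, and Fgfr1 was 0.14 with NP with kept or all averaged. With 1 array left out Fgfr1 was −0.13 to 0.043 with BPA and −0.21 to 0.13 with NP. Among other genes, averaging all probe sets turned Col1a2 (0.093) and Fgf3 (−0.18, also with kept ones) over control differentiation, Ext1 (0.0039) and Plcg1 (−0.27) with BPA against control day0, and Ptpn11 (−0.045, also with kept ones) with NP against control day0.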
